A study of Mus musculus with 8 samples.

Results

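Matrix metalloproteases and their inhibitors were followed in mouse embryonic fibroblasts (MEFs) by the symbols of the deposited count table: every gene named Mmp with a number, Adamts with a number, or Timp1 to Timp4 was taken, 46 of the 50578 genes listed. They were 23 Mmp genes, 19 Adamts genes and 4 Timp genes. RNA-seq had been performed on wild-type MEFs left untreated (Control) and on MEFs given carbidopa, CHIR-99021 or LY-364747 at 10 µM, with 2 libraries per group and 8 in all. MEFs came from C57BL/6J embryos, were plated at passage 3 to 5 and received the compound after attachment, and all libraries share this source. Carbidopa inhibits aromatic-L-amino-acid decarboxylase and CHIR-99021 inhibits the kinase GSK3. The sample labels write LY-364747, a spelling kept here, for the compound that the study's methods name LY-364947, a TGF-beta receptor inhibitor. The labels name neither a vehicle for the untreated cells nor the time of harvest for RNA-seq, and nothing says that the libraries of a group came from separate cultures, so the p-values measure the spread between these libraries.

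Total counts per library ranged from 15039566 to 20504338. Levels are given in CPM (counts scaled by TMM library size, the usual CPM unit of edgeR), and genes are compared with each other only in CPM per kilobase of exon. Differences between groups were tested with edgeR's quasi-likelihood test over all 15154 genes with enough reads, and a gene is called higher or lower where its p, adjusted by Benjamini-Hochberg, lay under 0.05. All adjusted p-values below come from this test. Fibroblast markers were plainly present, with the 10 genes of the list summing to 16157 to 16387 CPM in MEFs and to 5947 to 8203 CPM in treated cells. With each compound 8 of these 10 were called lower and 1 higher, whereas 17.2% to 20.1% of all genes were lower. The labels call the treated cells hepatic-like, for which the paper gives qRT-PCR of hepatocyte genes, staining for fat and glycogen, and clustering of expression. In these RNA-seq libraries none of 8 hepatocyte markers had enough reads for a test. Together they reached 0.258 to 0.297 CPM in MEFs and 0.518 to 1.18 CPM in treated cells. The 14 macrophage markers that could be read summed to 1136 to 1179 CPM in MEFs, 351 to 375 with carbidopa, 263 to 267 with LY-364747 and 85.4 to 93.4 with CHIR-99021.

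The proteins of these genes build and take down the matrix around a fibroblast. MMPs are zinc proteases that cut collagens, gelatins, elastin and other matrix proteins, either as secreted enzymes or anchored in the membrane, and most are made as inactive precursors. ADAMTS enzymes are secreted relatives, among them the aggrecanases that cut proteoglycans such as aggrecan and versican, and the procollagen N-proteinases that trim fibrillar procollagens. TIMPs bind the active site of MMPs and block them. TIMP2 also helps MMP14 to activate the precursor of MMP2, and TIMP3, which is held in the matrix, also inhibits aggrecanases. Transcript counts do not measure whether an enzyme is active.

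Of the 46 genes, 33 had enough reads for a test, 15 Mmp, 15 Adamts and 3 Timp genes. Lower levels outnumbered higher ones in each treatment, and the inhibitors fell furthest as a family. With carbidopa, 7 of the 33 genes were higher (21.2%) and 18 lower (54.5%), whereas 18.0% of all genes tested were higher and 19.7% lower. With LY-364747, 7 were higher (21.2%) and 18 lower (54.5%), against 13.7% and 17.2% of all genes. With CHIR-99021, 5 were higher (15.2%) and 18 lower (54.5%), against 18.7% and 20.1% of all genes. The share of lower genes was thus above the background in each comparison, while the share of higher genes lay closer to it. The median log2 fold change of the tested members was -0.86 with carbidopa, -0.94 with LY-364747 and -0.93 with CHIR-99021, where the median over all genes was 0.04, 0.03 and 0.04. These comparisons use the same MEF libraries, so their counts are not independent of each other. Of the 33 genes, 28 had at least 10 reads in every library, and the other 5 (Mmp10, Mmp27, Adamts8, Adamts19 and Adamts20) passed the filter through their higher libraries, so the counts over tested members lean towards genes that differ.

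**Figure D1:**
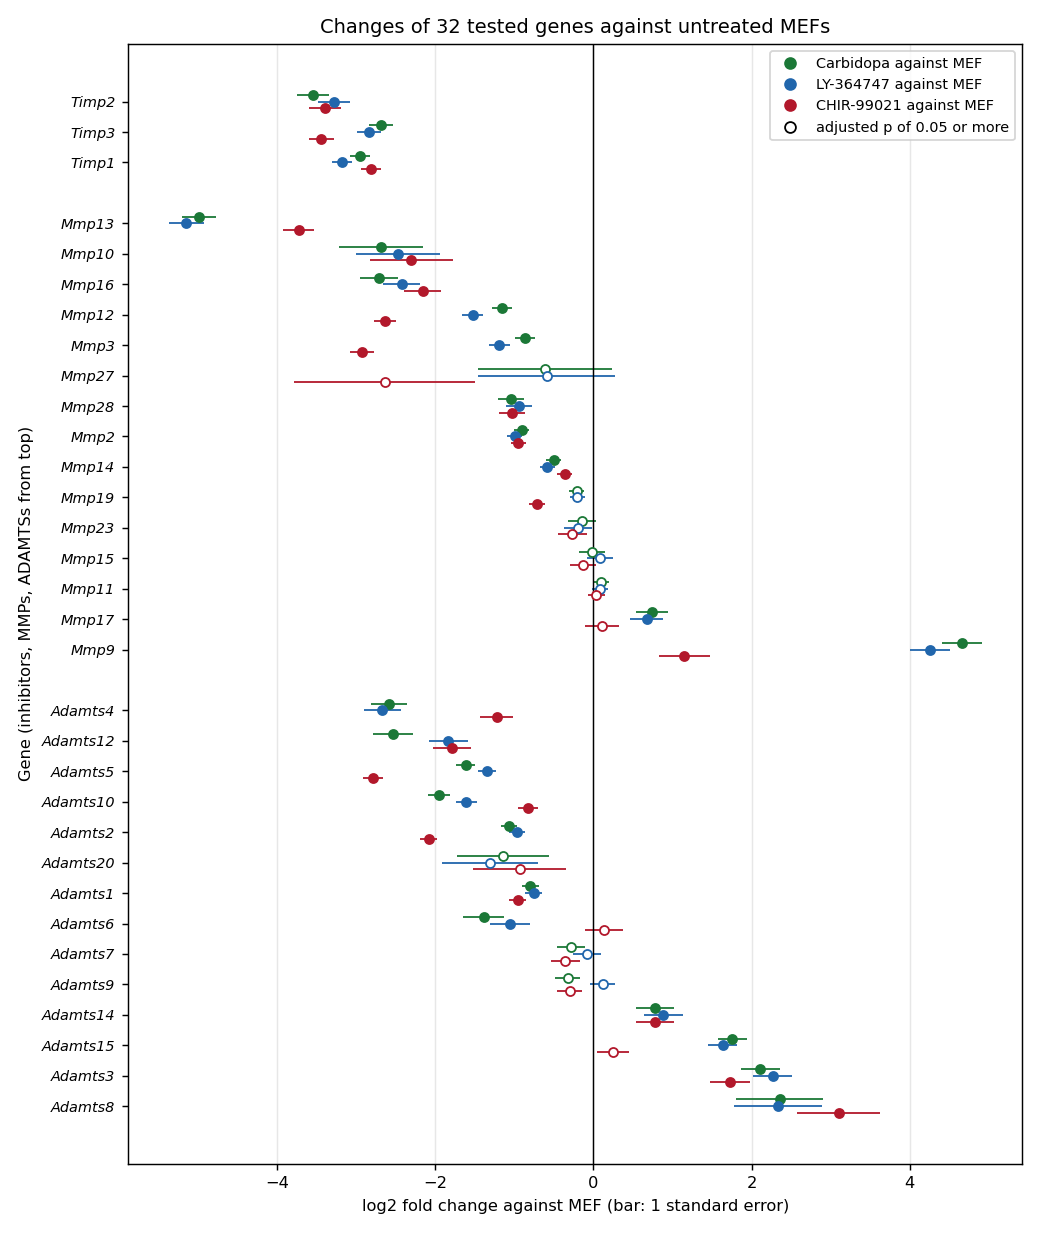
Log2 fold changes (x axis) of 32 tested genes (y axis, inhibitors, MMPs and ADAMTSs from top) against untreated MEFs, with carbidopa in green, LY-364747 in blue and CHIR-99021 in red. Bars are 1 standard error, filled points passed the adjusted p of 0.05 and open points did not, and Adamts19, which had no read in MEFs, is left out. Timp1, Timp2 and Timp3 lie between -3.54 and -2.68, Mmp13 lies lowest and Mmp9 furthest to the right with carbidopa and LY-364747.

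The 3 inhibitor genes with enough reads, Timp1, Timp2 and Timp3, were among the most abundant transcripts of the set in MEFs and fell in every treatment. Timp2 (ENSMUSG00000017466, chromosome 11, 118301069 to 118355740 of mm10) was at 3978 and 4102 CPM in untreated MEFs, 399 and 294 under carbidopa, 441 and 394 under LY-364747 and 459 and 309.7 under CHIR-99021. The treated libraries lay between 294 and 459 CPM, far below both MEF libraries, and the treated groups overlapped each other. The log2 fold changes were -3.54 (SE 0.20, adjusted p = 5.40e-07) under carbidopa, -3.28 (SE 0.20, adjusted p = 9.30e-07) under LY-364747 and -3.39 (SE 0.20, adjusted p = 6.74e-07) under CHIR-99021, which are falls of 11.7-, 9.68- and 10.5-fold. Timp1 (ENSMUSG00000001131, chromosome X, 20870166 to 20874735), a secreted inhibitor with broad action on MMPs, was at 202 and 192 CPM in untreated MEFs, 27.9 and 23.3 under carbidopa, 22.8 and 20.9 under LY-364747 and 26.1 and 30.2 under CHIR-99021. On the log2 scale it changed against MEF by -2.95 (SE 0.13, adjusted p = 7.20e-08) under carbidopa, -3.18 (SE 0.13, adjusted p = 4.83e-08) under LY-364747 and -2.81 (SE 0.13, adjusted p = 9.65e-08) under CHIR-99021, and no treated library came near the MEF values.

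Timp3 (ENSMUSG00000020044, chromosome 10, 86300372 to 86349506) was at 5159 and 5632 CPM in untreated MEFs, 713 and 968 under carbidopa, 774 and 739 under LY-364747 and 459 and 537 under CHIR-99021. All treated libraries were again low, and the CHIR-99021 libraries were the lowest of them. The log2 fold changes were -2.68 (SE 0.15, adjusted p = 5.31e-07) under carbidopa, -2.83 (SE 0.16, adjusted p = 3.90e-07) under LY-364747 and -3.44 (SE 0.16, adjusted p = 1.10e-07) under CHIR-99021. Its exons overlap those of Syn3 on the other strand, and it shares 20.6% of its 75-base words with Syn3 transcripts, and the strand setting of the counting is not given in the sources used here. With 1 library left out at a time, these falls ran from -3.78 to -3.14 for Timp2, -3.24 to -2.71 for Timp1 and -3.56 to -2.48 for Timp3, and each passed the threshold. Timp4, the fourth inhibitor, was covered by 3 and 7 reads in untreated MEFs and by 0 to 2 after treatment, too few for a test.

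Summed per kilobase of exon, the 4 Timp genes stood at 1883 and 1961 CPM per kb in untreated MEFs and at 179 to 234 after treatment. The sum was 0.115 of the MEF level with carbidopa, 0.117 with LY-364747 and 0.0997 with CHIR-99021. The 23 Mmp genes summed to 499.7 and 485 CPM per kb in MEFs and to 285 to 313 in treated cells, which is 0.618, 0.580 and 0.588 of the MEF level in the same order. The 19 Adamts genes summed to 202 and 206 CPM per kb in MEFs and to 89.5 to 120 in treated cells, or 0.514, 0.558 and 0.448 of the MEF level. Transcripts of inhibitors thus fell by a larger factor than those of the proteases. The Timp sum was 3.77 and 4.04 times the Mmp sum in untreated MEFs and 0.623 to 0.817 times after treatment, without overlap. These sums are descriptions without a test, and a sum over transcripts does not weigh how strongly each inhibitor acts on each enzyme.

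**Figure D2:**
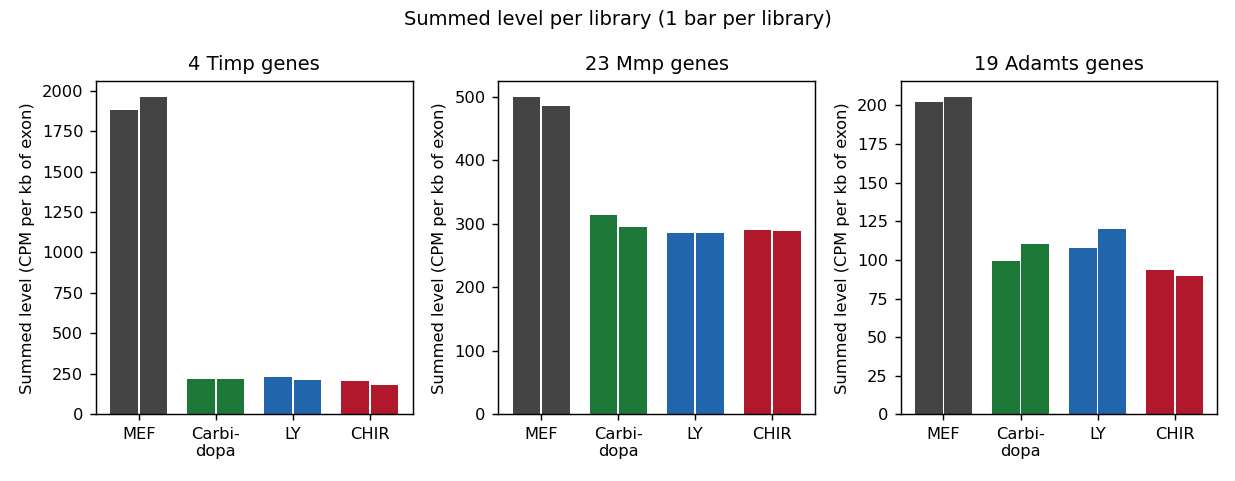
Summed level per library (y axis, CPM per kb of exon, starting at 0) of the 4 Timp, 23 Mmp and 19 Adamts genes, with 1 bar for each of the 2 libraries per group (LY is LY-364747 and CHIR is CHIR-99021). The Timp sum falls from 1883 and 1961 in MEFs to 179 to 234 in treated cells, while the Mmp sum falls from 499.7 and 485 to 285 to 313.

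Most Mmp transcripts came from 2 genes. Mmp2, the gelatinase that fibroblasts secrete, held 46.8% to 47.1% of the Mmp sum per kb in MEFs, and Mmp14, its membrane-anchored activator, held 33.5% to 33.9%. In treated cells these shares were 40.0% to 41.9% and 38.1% to 45.0%. Mmp2 (ENSMUSG00000031740, chromosome 8, 92827291 to 92853420) was at 788 and 769 CPM in untreated MEFs, 432 and 397 under carbidopa, 395 and 386 under LY-364747 and 411 and 396 under CHIR-99021. Fold changes on the log2 scale were -0.91 (SE 0.09, adjusted p = 3.71e-05) under carbidopa, -1.0 (SE 0.09, adjusted p = 2.00e-05) under LY-364747 and -0.95 (SE 0.09, adjusted p = 2.66e-05) under CHIR-99021, and the treated libraries lay within 386 to 432 CPM. Mmp14 (ENSMUSG00000000957, chromosome 14, 54431612 to 54445364) was at 1009 and 968 CPM in untreated MEFs, 728 and 670.3 under carbidopa, 653 and 668 under LY-364747 and 763 and 773 under CHIR-99021. The fall was smaller, with log2 fold changes of -0.50 (SE 0.09, adjusted p = 0.00215) under carbidopa, -0.58 (SE 0.09, adjusted p = 8.91e-04) under LY-364747 and -0.36 (SE 0.09, adjusted p = 0.0114) under CHIR-99021. The call with CHIR-99021 was lost without any one of MEF replicate 1, MEF replicate 2, CHIR-99021 replicate 1 or CHIR-99021 replicate 2, where the adjusted p ranged from 0.0527 to 0.0995.

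The order of the Mmp levels in MEFs, in CPM per kb (mean ± SD, n = 2), was Mmp2 at 231 ± 3.84, Mmp14 at 166 ± 4.90, Mmp3 at 25.5 ± 2.26, Mmp19 at 17.5 ± 0.272, Mmp11 at 16.2 ± 0.295 and Mmp13 at 14.2 ± 0.148. All other Mmp genes were under 8 CPM per kb. Each step in this order was wider than the spread of its 2 libraries. In carbidopa-treated cells Mmp2 at 123 ± 7.28 and Mmp14 at 117 ± 6.81 lay within the spread of each other's libraries, although Mmp2 was the higher of the pair in both libraries. Mmp14 led with CHIR-99021, at 129 ± 1.13 against 119.7 ± 3.14 for Mmp2. Among the inhibitors in MEFs, Timp2 at 1037 ± 22.4 CPM per kb stood above Timp3 at 662 ± 41.1 and Timp1 at 222 ± 8.17.

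Mmp9 moved in the other direction. It encodes the other gelatinase, and its level rose from under 1 CPM in MEFs to over 16 CPM under carbidopa and LY-364747. Mmp9 (ENSMUSG00000017737, chromosome 2, 164940780 to 164955850) was covered by 13 and 11 reads in untreated MEFs, 451 and 453 under carbidopa, 286 and 301 under LY-364747 and 40 and 24 under CHIR-99021. In CPM these were 0.967 and 0.710, 21.2 and 21.1, 16.1 and 16.0 and 2.30 and 1.39. The replicates of carbidopa and of LY-364747 were nearly equal, and every group was apart from the others. Its log2 fold changes were 4.66 (SE 0.25, adjusted p = 3.08e-07) under carbidopa, 4.26 (SE 0.25, adjusted p = 7.24e-07) under LY-364747 and 1.15 (SE 0.32, adjusted p = 0.0174) under CHIR-99021, which are rises of 25.3-, 19.2- and 2.22-fold. The rise with CHIR-99021 rests on single libraries: it was 0.92 without MEF replicate 2 (adjusted p = 0.143) and 0.74 without CHIR-99021 replicate 1 (adjusted p = 0.185), and both calls were lost. Macrophages and neutrophils are well known sources of MMP9. In these libraries the summed macrophage markers were lower in every treated group than in MEFs (values above), and the 6 neutrophil markers summed to 0.700 CPM at most in any library. Epithelial markers were higher after treatment: the 8 genes summed to 3.23 to 4.24 CPM in MEFs, 18.1 to 23.0 under carbidopa, 9.82 to 11.7 under LY-364747 and 11.1 to 13.2 under CHIR-99021. Of the 5 that could be tested, 3, 1 and 3 were called higher, Krt19 made up most of each sum, and Epcam and Cdh1 stayed under 0.3 CPM in every library. The part of other cell types in the rise of Mmp9 was not tested.

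Mmp13 showed the opposite pattern and the largest fall of the set. It encodes a collagenase that cuts fibrillar collagens. Mmp13 (ENSMUSG00000050578, chromosome 9, 7272514 to 7283331) was at 37.7 and 38.3 CPM in untreated MEFs, 1.41 and 0.980 under carbidopa, 0.898 and 1.22 under LY-364747 and 2.53 and 3.19 under CHIR-99021. Both MEF libraries were at nearly the same value, and all treated libraries were under 4 CPM. The log2 fold changes were -4.98 (SE 0.21, adjusted p = 7.18e-08) under carbidopa, -5.15 (SE 0.22, adjusted p = 7.64e-08) under LY-364747 and -3.73 (SE 0.20, adjusted p = 2.57e-07) under CHIR-99021, or falls of 31.6-, 35.4- and 13.2-fold. No fall was lost when any 1 library was left out.

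**Figure D3:**
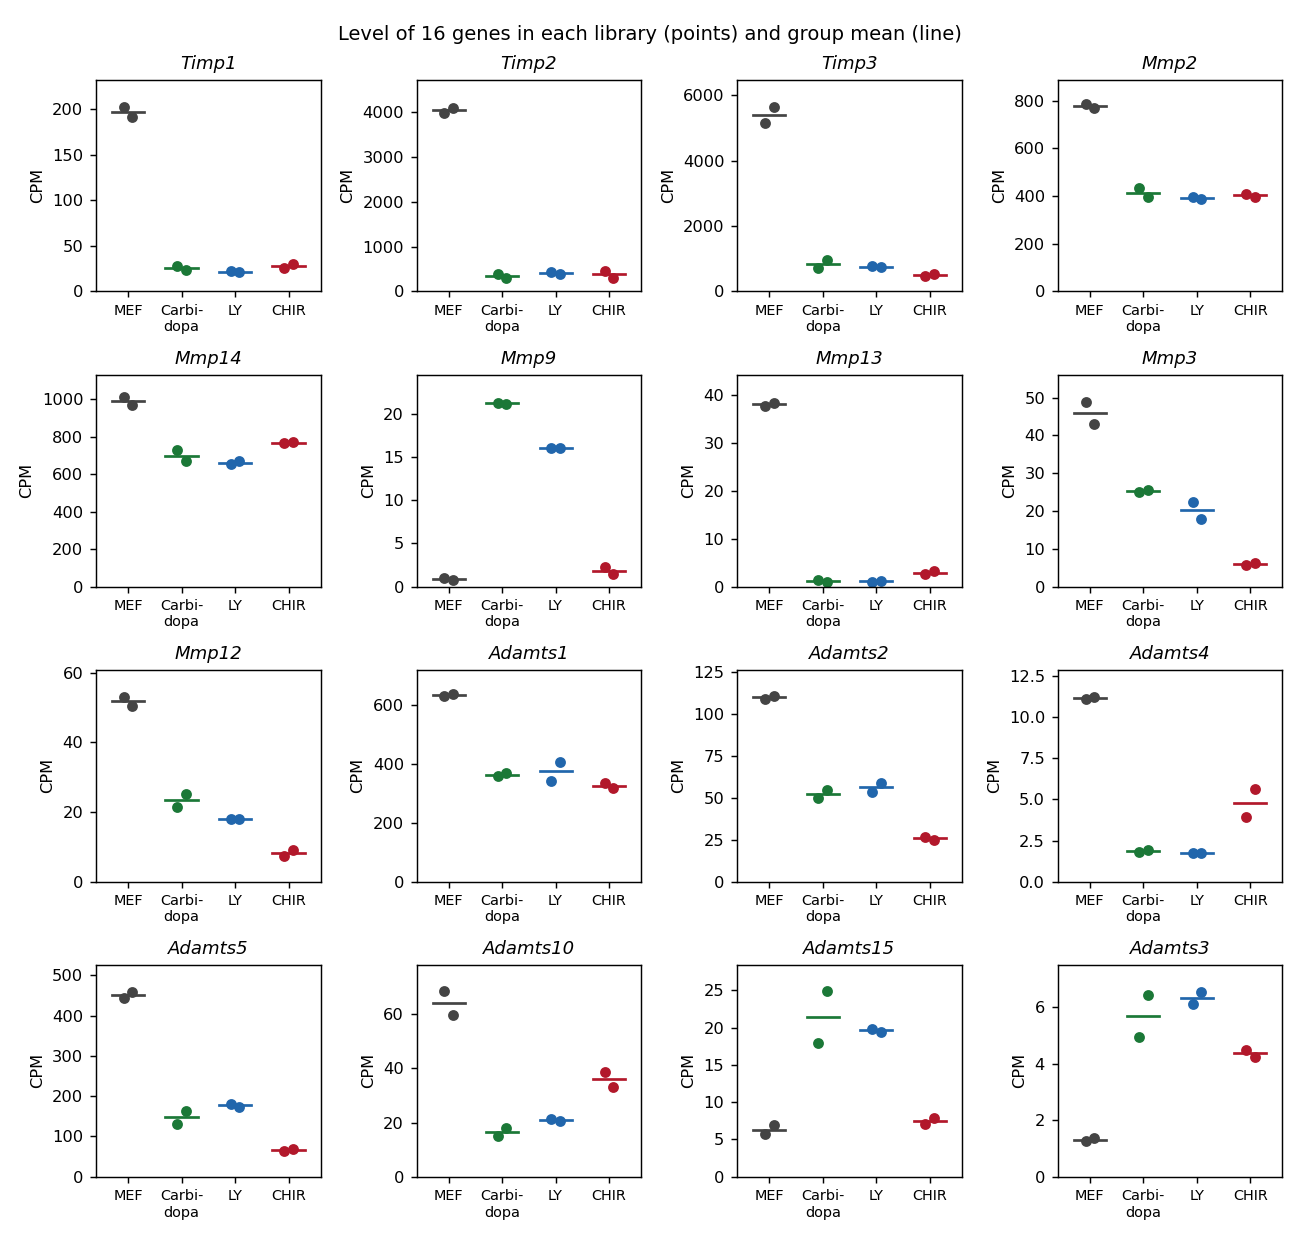
Level (y axis, CPM, starting at 0) of 16 genes in each of the 8 libraries, with points for libraries and a line for the mean of the 2 libraries of a group (x axis, LY is LY-364747 and CHIR is CHIR-99021). The inhibitors and Mmp13 are high in MEFs alone, Mmp9 and Adamts15 are high with carbidopa and LY-364747, and Mmp3, Mmp12, Adamts2 and Adamts5 are lowest with CHIR-99021.

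Mmp13 is the first of 10 Mmp genes that lie together on chromosome 9 of mm10 within 427.1 kb, in the order Mmp13, Mmp12, Mmp1b, Mmp3, Mmp1a, Mmp10, Mmp8, Mmp27, Mmp20 and Mmp7. Of these, 5 could be tested, and 4 were lower than in MEFs with each compound (Mmp13, Mmp12, Mmp3 and Mmp10), where 19.7%, 17.2% and 20.1% of all genes were lower. Mmp10 and Mmp27, the other gene tested, passed the filter on low counts through their higher libraries. Mmp3 (ENSMUSG00000043613, chromosome 9, 7445822 to 7455975), a stromelysin with a wide range of matrix substrates, was at 48.8 and 43.0 CPM in untreated MEFs, 24.9 and 25.5 under carbidopa, 22.3 and 18.0 under LY-364747 and 5.76 and 6.33 under CHIR-99021. The levels stepped down from MEF to carbidopa, LY-364747 and CHIR-99021 without overlap between any 2 of these groups. The log2 fold changes of Mmp3 were -0.86 (SE 0.13, adjusted p = 5.68e-04) under carbidopa, -1.19 (SE 0.13, adjusted p = 7.27e-05) under LY-364747 and -2.92 (SE 0.15, adjusted p = 2.27e-07) under CHIR-99021. Mmp10, the other stromelysin of the cluster, was at 2.16 and 2.45 CPM in untreated MEFs, 0.518 and 0.187 under carbidopa, 0.617 and 0.213 under LY-364747 and 0.461 and 0.464 under CHIR-99021. The change on the log2 scale was -2.69 (SE 0.53, adjusted p = 0.00296) under carbidopa, -2.47 (SE 0.53, adjusted p = 0.00528) under LY-364747 and -2.30 (SE 0.53, adjusted p = 0.00623) under CHIR-99021, from 4 to 38 reads per library. The fall under LY-364747 was not called without LY-364747 replicate 2 (-1.89, adjusted p = 0.0534) nor that under CHIR-99021 without CHIR-99021 replicate 1 (-2.30, adjusted p = 0.0505). Mmp3 and Mmp10 share 3.76% and 3.94% of their 75-base words with each other, so a few reads could belong to either.

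Mmp12 (ENSMUSG00000049723, chromosome 9, 7344381 to 7369499), known as macrophage elastase, was at 52.9 and 50.5 CPM in untreated MEFs, 21.5 and 25.1 under carbidopa, 18.0 and 17.9 under LY-364747 and 7.48 and 9.11 under CHIR-99021. Its levels fell in the same order of groups as those of Mmp3, and no groups overlapped. The log2 fold changes were -1.15 (SE 0.13, adjusted p = 6.04e-05) under carbidopa, -1.53 (SE 0.13, adjusted p = 9.36e-06) under LY-364747 and -2.64 (SE 0.14, adjusted p = 2.76e-07) under CHIR-99021. The summed macrophage markers moved in the same order of groups, from 1136 to 1179 CPM in MEFs to 85.4 to 93.4 CPM with CHIR-99021, and 11, 11 and 12 of the 12 markers tested were lower with carbidopa, LY-364747 and CHIR-99021. Csf1r was at 37.4 and 33.2 CPM in MEFs and at 3.80 and 3.66 with CHIR-99021, while Cd163 had at most 1 read in any library. The part of macrophages in the fall of Mmp12 was not tested, and in bulk RNA fewer cells of a type and less RNA per cell cannot be told apart. Mmp8, a collagenase typical of neutrophils, was covered by 9 and 7 reads in untreated MEFs and by 0 to 2 after treatment. With LY-364747 both libraries were at 0, which allows up to 3 reads per library. The MEF mean was 3.42-fold above that level. This ratio leaves out the counting error of the 9 and 7 MEF reads, and Mmp8 had too few reads for a test. Mmp27 had 1 to 15 reads and did not pass the test. Under CHIR-99021 it was at -2.64 (SE 1.14, adjusted p = 0.0933), and without MEF replicate 1 it passed at -3.38 (adjusted p = 0.0405). Without a filter, Mmp27 was lower with CHIR-99021 (-2.62, adjusted p = 0.0287). The mouse collagenase copies Mmp1a and Mmp1b, which share sequence, had at most 1 and 13 reads, and Mmp20 and Mmp7 had at most 1 read in any library.

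**Figure D4:**
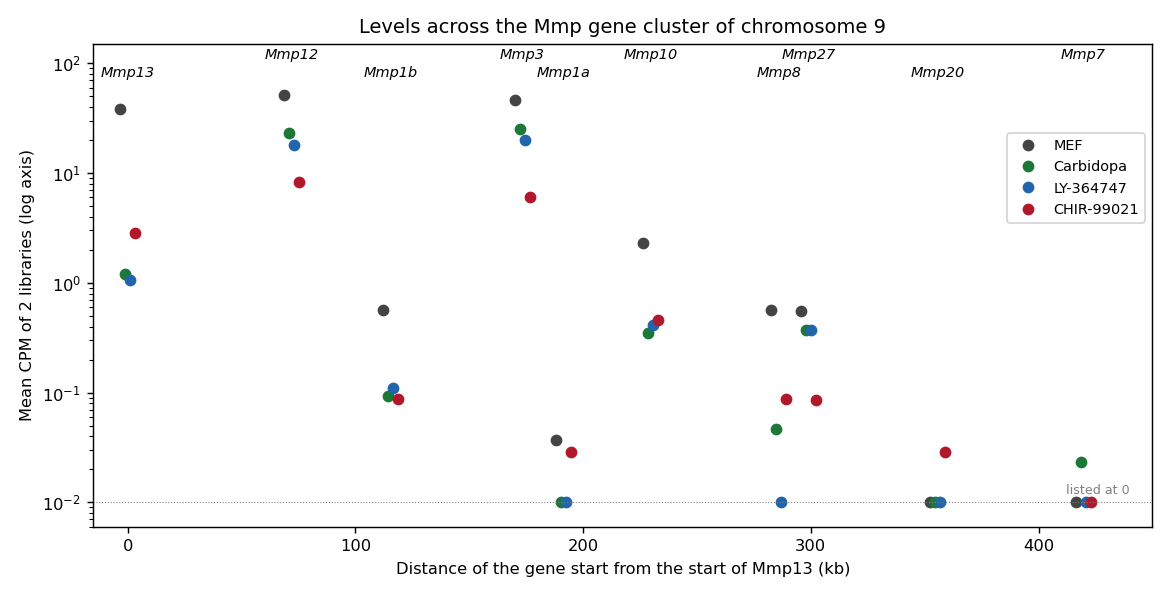
Mean level of 2 libraries (y axis, CPM, log axis) of the 10 Mmp genes of the chromosome 9 cluster, by the distance of each gene's start from that of Mmp13 (x axis, kb), with the 4 groups offset sideways. Points on the dotted line are groups in which no read was counted. Mmp13, Mmp12, Mmp3 and Mmp10 are highest in MEFs, and Mmp1a, Mmp20 and Mmp7 had at most 1 read in any library.

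The bases before the annotated starts of the 4 cluster genes that were lower are shown because these genes are neighbours that moved in the same direction, and because an AP-1 site near the start is a known feature of several MMP promoters. RefSeq promoters on GRCm38.p6, the assembly also called mm10, were found for 32 of the 46 genes, and Mmp9 was not among them. Each sequence gives the 250 bases before the start, 5′ to 3′ on the gene's strand, with capitals marking the AP-1 letters TGAGTCA on either strand.
Mmp13 chr9:7272264-7272513 (plus strand): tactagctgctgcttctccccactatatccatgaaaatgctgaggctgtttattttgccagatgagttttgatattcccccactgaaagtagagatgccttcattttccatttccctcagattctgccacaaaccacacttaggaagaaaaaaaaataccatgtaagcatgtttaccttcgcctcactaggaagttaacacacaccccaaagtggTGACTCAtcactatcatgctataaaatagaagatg
Mmp3 chr9:7445572-7445821 (plus strand): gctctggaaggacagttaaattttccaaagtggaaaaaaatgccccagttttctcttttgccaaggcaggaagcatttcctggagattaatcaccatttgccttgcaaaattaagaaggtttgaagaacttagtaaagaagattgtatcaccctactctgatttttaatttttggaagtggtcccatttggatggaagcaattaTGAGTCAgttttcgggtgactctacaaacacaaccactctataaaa
Mmp10 chr9:7502092-7502341 (plus strand): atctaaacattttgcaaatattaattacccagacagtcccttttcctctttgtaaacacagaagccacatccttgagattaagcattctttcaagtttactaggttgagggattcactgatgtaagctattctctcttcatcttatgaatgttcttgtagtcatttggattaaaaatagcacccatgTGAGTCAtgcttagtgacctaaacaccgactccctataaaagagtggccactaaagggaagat
Mmp12 chr9:7344147-7344396 (plus strand): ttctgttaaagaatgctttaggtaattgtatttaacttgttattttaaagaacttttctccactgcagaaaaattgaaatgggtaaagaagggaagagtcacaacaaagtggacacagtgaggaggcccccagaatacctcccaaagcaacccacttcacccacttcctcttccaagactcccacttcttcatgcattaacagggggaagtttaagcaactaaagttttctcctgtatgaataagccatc

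The AP-1 letters begin 35 bases before the start of Mmp13, 46 before that of Mmp3 and 63 before that of Mmp10. They do not occur in the 250 bases before Mmp12, which was lower as well. Over all 27025 promoters, 4.43% held TGAGTCA on either strand within these 250 bases. Of the 32 promoters of the set, 6 did, those of Mmp13, Mmp3, Mmp10, Mmp1a, Mmp1b and Mmp7, which all lie in the cluster. The letters TATAAA on either strand were found in 9 of the 32 and in 13.0% of all promoters, and they do not overlap the AP-1 letters in Mmp13, Mmp3 or Mmp10. The TGF-beta inhibitory element, searched by its consensus on both strands, was in 0 of the 32 and in 0.84% of all promoters. A match is a description of letters and not of a bound site, and a missing match says only that the letters are not in this window.

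The other MMPs include membrane-anchored enzymes. Mmp16, a membrane-type MMP, was at 38.3 and 38.3 CPM in untreated MEFs, 4.0 and 7.70 under carbidopa, 7.69 and 6.60 under LY-364747 and 8.58 and 8.59 under CHIR-99021, with log2 fold changes of -2.71 (SE 0.24, adjusted p = 1.11e-05) under carbidopa, -2.42 (SE 0.24, adjusted p = 2.43e-05) under LY-364747 and -2.16 (SE 0.23, adjusted p = 4.75e-05) under CHIR-99021. Mmp28 was lower in each treatment as well, at -1.04, -0.94 and -1.03 on the log2 scale (adjusted p = 7.07e-04, 0.00158 and 8.15e-04). It shares 9.77% of its 75-base words with a gene on the other strand. Mmp17, which is anchored by a lipid, was higher with carbidopa by 0.74 (SE 0.20, adjusted p = 0.0154) and with LY-364747 by 0.67 (SE 0.20, adjusted p = 0.0292), but DESeq2 gave adjusted p = 0.0881 and 0.162, and both calls were lost without MEF replicate 1 or MEF replicate 2 (adjusted p = 0.0621 to 0.165). The call with LY-364747 was also lost without LY-364747 replicate 1 (0.0862) or 2 (0.145). With the compared groups alone, the call of Mmp17 with carbidopa was lost (adjusted p = 0.0533). Mmp19 was lower with CHIR-99021, at -0.71 (SE 0.10, adjusted p = 2.75e-04), and was at -0.21 with carbidopa and -0.20 with LY-364747, which did not pass. Without carbidopa replicate 2 these were -0.27 (adjusted p = 0.0278) and -0.20 (0.0446), and both passed, the latter also without carbidopa replicate 1 (0.0444). Fitted with the compared groups alone, Mmp19 was lower with LY-364747 (-0.20, adjusted p = 0.0383). Mmp19 shares 23.1% of its 75-base words with genes on the other strand. Mmp11, Mmp15 and Mmp23 did not pass the test with any compound. Mmp11 was at 44.4 to 50.1 CPM over the 8 libraries, and the confidence intervals (95%) of its log2 fold changes were -0.13 to 0.32, -0.15 to 0.31 and -0.19 to 0.27. Those of Mmp15 reached from -0.50 to 0.45 and those of Mmp23 from -0.67 to 0.25. Mmp21, Mmp24 and Mmp25 had at most 1, 9 and 8 reads in any library and were not tested.

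Among the ADAMTS genes, Adamts1 and Adamts5, which cut proteoglycans, were the most abundant per kilobase in MEFs, and both fell under each compound, as did the less abundant Adamts4. Adamts1 held 58.6% to 58.7% of the Adamts sum per kb in MEFs and Adamts5 20.4% to 20.7%. Adamts5 (ENSMUSG00000022894, chromosome 16, 85856173 to 85901828), a main aggrecanase, was at 445 and 458 CPM in untreated MEFs, 131 and 164 under carbidopa, 181 and 174 under LY-364747 and 62.9 and 67.7 under CHIR-99021. The CHIR-99021 libraries were lowest, and no treated library reached the MEF values. Against MEF, it changed on the log2 scale by -1.61 (SE 0.12, adjusted p = 3.21e-06) under carbidopa, -1.35 (SE 0.12, adjusted p = 1.17e-05) under LY-364747 and -2.79 (SE 0.13, adjusted p = 9.38e-08) under CHIR-99021. Adamts1, its neighbour on chromosome 16 and a versican-cutting enzyme, was at 629.9 and 639 CPM in untreated MEFs, 359 and 370.1 under carbidopa, 344 and 407 under LY-364747 and 337 and 317 under CHIR-99021. Its fall was smaller, with log2 fold changes of -0.80 (SE 0.11, adjusted p = 2.22e-04) under carbidopa, -0.76 (SE 0.11, adjusted p = 3.39e-04) under LY-364747 and -0.96 (SE 0.11, adjusted p = 6.11e-05) under CHIR-99021. Adamts4 (ENSMUSG00000006403, chromosome 1, 171250421 to 171260637), the other main aggrecanase, was at 11.1 and 11.2 CPM in untreated MEFs, 1.79 and 1.91 under carbidopa, 1.74 and 1.76 under LY-364747 and 3.92 and 5.63 under CHIR-99021. Its log2 values against MEF were -2.59 (SE 0.23, adjusted p = 1.09e-05) under carbidopa, -2.67 (SE 0.23, adjusted p = 1.08e-05) under LY-364747 and -1.22 (SE 0.21, adjusted p = 0.00109) under CHIR-99021, so here CHIR-99021 stood highest among the treatments.

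Adamts15, another proteoglycan-cutting enzyme, rose instead. It was at 5.73 and 6.90 CPM in untreated MEFs, 18.0 and 24.9 under carbidopa, 19.9 and 19.4 under LY-364747 and 7.14 and 7.89 under CHIR-99021, so that carbidopa and LY-364747 stood apart from the other groups. On the log2 scale it changed against MEF by 1.76 (SE 0.19, adjusted p = 4.74e-05) under carbidopa, 1.63 (SE 0.19, adjusted p = 8.76e-05) under LY-364747 and 0.25 (SE 0.20, adjusted p = 0.359) under CHIR-99021, and the value with CHIR-99021 did not pass the test. Adamts8, the gene next to Adamts15 on chromosome 9, had 2 and 10 reads in MEFs and 29 to 77 in treated cells. It shares 7.5% of its 75-base words with a gene on the other strand. Fold changes on the log2 scale were 2.35 (SE 0.55, adjusted p = 0.00743) under carbidopa, 2.33 (SE 0.55, adjusted p = 0.00901) under LY-364747 and 3.10 (SE 0.53, adjusted p = 0.00109) under CHIR-99021. Without MEF replicate 1 they were 1.71 with carbidopa (adjusted p = 0.0591) and 1.69 with LY-364747 (adjusted p = 0.0700), which were not called, and the call with LY-364747 was also lost without LY-364747 replicate 2 (1.97, adjusted p = 0.0673). Adamts9, a broadly expressed member, and Adamts7 did not pass in the comparisons with MEF with the 8 libraries fitted jointly. With the compared groups alone, Adamts9 was lower with CHIR-99021 (-0.31, adjusted p = 0.0305). Without carbidopa replicate 2, Adamts9 was lower with carbidopa (-0.58, adjusted p = 0.00351) and with CHIR-99021 (-0.30, 0.0334), and Adamts7 with carbidopa (-0.53, 0.0207). Without carbidopa replicate 1, both passed with CHIR-99021 (-0.30, 0.0325 and -0.35, 0.0488). Adamts9 was at 62.0 to 104 CPM and shares 9.71% of its words with antisense transcripts. Adamts20 had 5 to 19 reads and did not pass.

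The procollagen N-proteinases moved in different directions. Adamts2 (ENSMUSG00000036545, chromosome 11, 50602084 to 50807573), the main one in skin and other connective tissue, was at 109 and 111 CPM in untreated MEFs, 50.2 and 54.5 under carbidopa, 53.6 and 59.0 under LY-364747 and 26.9 and 25.1 under CHIR-99021. It fell in every treatment and furthest with CHIR-99021, with log2 fold changes of -1.07 (SE 0.10, adjusted p = 2.08e-05) under carbidopa, -0.97 (SE 0.10, adjusted p = 4.62e-05) under LY-364747 and -2.08 (SE 0.11, adjusted p = 2.27e-07) under CHIR-99021. Adamts3 was at 1.26 and 1.35 CPM in untreated MEFs, 4.94 and 6.44 under carbidopa, 6.12 and 6.55 under LY-364747 and 4.49 and 4.24 under CHIR-99021. It rose, by 2.11 (SE 0.24, adjusted p = 8.40e-05) under carbidopa, 2.27 (SE 0.24, adjusted p = 5.26e-05) under LY-364747 and 1.73 (SE 0.25, adjusted p = 4.09e-04) under CHIR-99021 on the log2 scale, without overlap between MEF and treated libraries. Adamts14 was at 5.80 and 4.84 CPM in untreated MEFs, 7.20 and 11.0 under carbidopa, 9.43 and 10.2 under LY-364747 and 10.4 and 7.78 under CHIR-99021, and its log2 fold changes were 0.78 (SE 0.24, adjusted p = 0.0285) under carbidopa, 0.88 (SE 0.24, adjusted p = 0.0188) under LY-364747 and 0.78 (SE 0.24, adjusted p = 0.0291) under CHIR-99021. All these calls of Adamts14 were lost without MEF replicate 1 (adjusted p = 0.0560 to 0.0728) or MEF replicate 2 (0.145 to 0.191), and single calls without carbidopa replicate 2, either LY-364747 library or CHIR-99021 replicate 1. The call of Adamts14 with carbidopa was also lost with the compared groups alone (adjusted p = 0.0623). Per kilobase, Adamts2 remained above Adamts3 and Adamts14 in each group. With CHIR-99021 it was at 2.79 ± 0.142 CPM per kb, Adamts14 at 1.75 ± 0.360 and Adamts3 at 0.804 ± 0.0332 (mean ± SD, n = 2).

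The remaining ADAMTS genes included 3 that fell under carbidopa and LY-364747, Adamts10, Adamts6 and Adamts12. Adamts10 (ENSMUSG00000024299, chromosome 17, 33524204 to 33553782), whose protein binds fibrillin, was at 68.3 and 59.6 CPM in untreated MEFs, 15.2 and 17.9 under carbidopa, 21.4 and 20.4 under LY-364747 and 38.8 and 33.1 under CHIR-99021. It fell less with CHIR-99021 than with the other compounds, with log2 fold changes of -1.95 (SE 0.13, adjusted p = 1.95e-06) under carbidopa, -1.61 (SE 0.13, adjusted p = 7.51e-06) under LY-364747 and -0.83 (SE 0.13, adjusted p = 6.17e-04) under CHIR-99021. Adamts6, its closest relative, was at 14.1 and 18.3 CPM in untreated MEFs, 4.33 and 8.02 under carbidopa, 7.80 and 7.83 under LY-364747 and 16.2 and 19.2 under CHIR-99021. Its log2 fold changes were -1.39 (SE 0.25, adjusted p = 0.00185) under carbidopa, -1.05 (SE 0.25, adjusted p = 0.00945) under LY-364747 and 0.13 (SE 0.24, adjusted p = 0.701) under CHIR-99021, and the CHIR-99021 and MEF libraries overlapped. The call with LY-364747 was lost without MEF replicate 2 (-0.84, adjusted p = 0.10), LY-364747 replicate 1 or LY-364747 replicate 2. Adamts12 was at 95.2 and 80.4 CPM in untreated MEFs, 10.1 and 20.2 under carbidopa, 23.0 and 26.3 under LY-364747 and 26.0 and 25.0 under CHIR-99021, with log2 fold changes of -2.53 (SE 0.25, adjusted p = 2.58e-05) under carbidopa, -1.83 (SE 0.24, adjusted p = 2.17e-04) under LY-364747 and -1.78 (SE 0.24, adjusted p = 2.41e-04) under CHIR-99021. Adamts19 had no read in either MEF library, 35 and 34 with carbidopa, 38 and 25 with LY-364747 and 9 and 7 with CHIR-99021. Against the 3 reads per library that a count of 0 allows, its observed means were 7.76-, 8.31- and 2.22-fold higher. These ratios allow for counting error in MEFs only. They leave out that of the treated reads, which were few with CHIR-99021, and the spread between cultures. Adamts13, Adamts16, Adamts17 and Adamts18 had at most 0, 1, 4 and 5 reads in any library and were not tested.

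The compounds were then compared with each other at the same dose of 10 µM. CHIR-99021 differed from carbidopa in 13 of the 33 genes, 4 higher (12.1%) and 9 lower (27.3%), whereas 6.62% of all genes were higher and 8.08% lower. It differed from LY-364747 in 13 genes, 4 higher (12.1%) and 9 lower (27.3%), against 6.45% and 7.69% of all genes. Both comparisons use the same CHIR-99021 libraries. In each, the higher genes were Mmp13, Adamts4, Adamts6 and Adamts10, and the lower genes were Mmp3, Mmp9, Mmp12, Mmp19, Adamts2, Adamts5, Adamts15, Adamts19 and Timp3. The median log2 difference over the 33 genes was -0.05 from carbidopa and -0.12 from LY-364747, where the median over all genes was -0.00071 and 0.0059.

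Mmp9 differed most, with CHIR-99021 11.4-fold below carbidopa and 8.65-fold below LY-364747, as log2 differences of -3.51 (SE 0.21, adjusted p = 7.81e-06) and -3.11 (SE 0.21, adjusted p = 2.01e-05). Mmp3 was lower, at -2.06 (SE 0.15, adjusted p = 2.50e-05) and -1.74 (SE 0.15, adjusted p = 9.12e-05), and Mmp12 at -1.49 (SE 0.14, adjusted p = 1.23e-04) and -1.11 (SE 0.14, adjusted p = 7.62e-04). Adamts5 was lower with CHIR-99021, at -1.18 (SE 0.12, adjusted p = 1.97e-04) and -1.44 (SE 0.12, adjusted p = 7.16e-05), and Adamts2 at -1.01 (SE 0.11, adjusted p = 2.28e-04) and -1.11 (SE 0.11, adjusted p = 1.49e-04). The stromelysin, the elastase, an aggrecanase and a procollagen proteinase were thus at their lowest with the GSK3 inhibitor. Adamts15 was lower, at -1.51 (SE 0.18, adjusted p = 4.92e-04) and -1.39 (SE 0.18, adjusted p = 8.96e-04). In the other direction, Adamts10 was higher with CHIR-99021 by 1.12 (SE 0.13, adjusted p = 4.86e-04) and 0.78 (SE 0.13, adjusted p = 0.00382), and Adamts4 by 1.36 (SE 0.23, adjusted p = 0.00400) and 1.44 (SE 0.24, adjusted p = 0.00356). Adamts6 was higher by 1.52 (SE 0.25, adjusted p = 0.00326) and 1.18 (SE 0.25, adjusted p = 0.0115), and Mmp13 by 1.25 (SE 0.25, adjusted p = 0.00858) and 1.42 (SE 0.26, adjusted p = 0.00619).

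Some of these calls rest on single libraries or on the choice of fit, and other genes passed only in alternative fits. With CHIR-99021, Adamts12 was higher than with carbidopa in DESeq2 (0.74, adjusted p = 0.0177) and without a filter (0.75, 1.98e-05). Mmp16 was higher than with carbidopa without a filter (0.55, 0.0384). Adamts9 was lower than with LY-364747 without a filter (-0.40, 0.0260) and with the compared groups alone (-0.42, 0.00539). Mmp17 was lower than with carbidopa when 10 counts were asked of every library (-0.64, 0.0479). The difference of Mmp13 from carbidopa was not called without CHIR-99021 replicate 2 (1.08, adjusted p = 0.0686), nor that from LY-364747 without LY-364747 replicate 1 (1.21, 0.0777). Fitted with the compared groups alone, the differences of Mmp13 and Mmp19 from carbidopa were not called either (1.26 and -0.50, adjusted p = 0.0607 and 0.0741). Adamts6 against LY-364747 was not called without any one of the 4 libraries compared (1.05 to 1.30, adjusted p = 0.0520 to 0.103), and Adamts10 against LY-364747 not without CHIR-99021 replicate 1 (0.66, 0.0545). Adamts19 was lower, at -1.79 (SE 0.44, adjusted p = 0.0261) and -1.89 (SE 0.44, adjusted p = 0.0218), and neither call held without CHIR-99021 replicate 1 or 2, the second not without LY-364747 replicate 1 either (adjusted p = 0.114 to 0.181), nor with DESeq2 (0.0868 and 0.0683). Mmp19 lost its calls without CHIR-99021 replicate 1 (0.0839 and 0.0858), and against LY-364747 without LY-364747 replicate 1 (0.0761). Of the 3 inhibitors tested, 1 was called between treatments with the 8 libraries fitted jointly. Timp3 was lower with CHIR-99021, at -0.75 (SE 0.15, adjusted p = 0.00742) and -0.60 (SE 0.15, adjusted p = 0.0216), the first not called without CHIR-99021 replicate 1 (-0.65, adjusted p = 0.0922) and the second not without CHIR-99021 replicate 1 or either LY-364747 library (0.0809 to 0.196). Timp1 and Timp2 did not pass, but without carbidopa replicate 1 or 2, which are not in that comparison and add to the shared estimate of spread, Timp1 was higher with CHIR-99021 than with LY-364747 (0.37, adjusted p = 0.0161 and 0.0165). With the compared groups alone, Timp1 was also higher with CHIR-99021 than with LY-364747 (0.36, adjusted p = 0.0446). The 95% confidence interval of the log2 difference of Timp2 was -0.26 to 0.57 from carbidopa and -0.53 to 0.30 from LY-364747. That of Timp1 was -0.14 to 0.42 and 0.08 to 0.65. For Mmp2 these intervals were -0.25 to 0.17 and -0.16 to 0.25, and for Mmp14 -0.07 to 0.34 and 0.01 to 0.43. Mmp14 too was higher than with LY-364747 without either carbidopa library (0.22, adjusted p = 0.0213 and 0.0215).

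**Figure D5:**
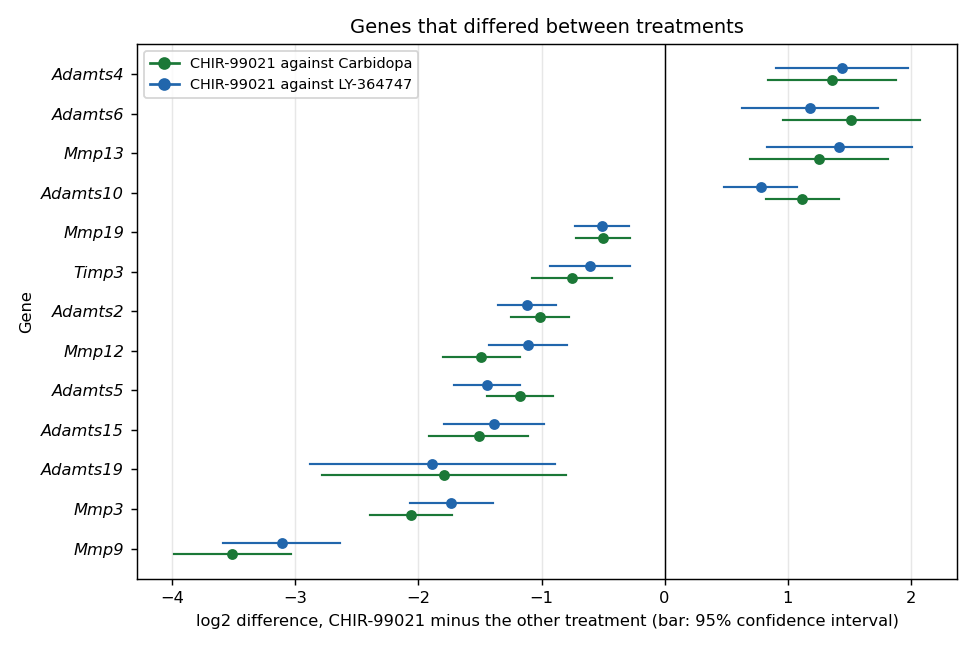
Log2 difference (x axis) of the 13 genes called between treatments (y axis), CHIR-99021 minus carbidopa in green and CHIR-99021 minus LY-364747 in blue, with bars for the 95% confidence interval. Genes left of 0 are lower with CHIR-99021, Mmp9 furthest at -3.51 and -3.11, and Adamts4, Adamts6, Mmp13 and Adamts10 lie to the right.

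Between LY-364747 and carbidopa, none of the 33 genes passed edgeR's test, and 7 had an unadjusted p under 0.05 (Mmp3, Mmp9, Mmp12, Adamts5, Adamts9, Adamts10 and Adamts12, named after their values were seen), which is 21.2% of them against 9.02% of all genes. DESeq2's Wald test called 0 as well. Of all genes, 0.0132% were called, all of them higher with LY-364747. The difference of Mmp9 was -0.40 on the log2 scale, with a 95% confidence interval of -0.78 to -0.03, and that of Adamts12 was 0.70 (0.15 to 1.25). For the inhibitors the intervals were -0.51 to 0.05 for Timp1, -0.15 to 0.68 for Timp2 and -0.47 to 0.17 for Timp3, so differences up to these bounds remain possible. The result depends on which library is left out. Without carbidopa replicate 1 no member was called, whereas calls appeared without carbidopa replicate 2. In the latter fit carbidopa replicate 1 stood alone and was assumed to vary like the other groups. Without carbidopa replicate 2, 6 genes were higher with LY-364747 (Adamts5, Adamts6, Adamts9, Adamts10, Adamts12 and Mmp16) and Timp1 was lower (-0.36, adjusted p = 0.0435). These 7 are 21.2% of the tested members, whereas 25.3% of all genes were called in that fit, so the members' share was no higher than the background. The carbidopa replicates differed from each other more than those of any other group, with a chi-square of 34.6 per degree of freedom over genes against 4.31 to 9.21 in the other groups. Adamts12 was at 10.1 and 20.2 CPM in the carbidopa libraries and Mmp16 at 4.0 and 7.70, and for both the LY-364747 libraries lay nearer to the higher of these.

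Other genes of pericellular proteolysis were read from a list of 66, of which 53 could be tested. With carbidopa 12 were higher and 26 lower, with LY-364747 9 and 26, and with CHIR-99021 9 and 28, with median log2 fold changes of -0.42, -0.42 and -0.50. Of all genes, as above, 18.0%, 13.7% and 18.7% were higher and 19.7%, 17.2% and 20.1% lower. Among the genes of plasminogen activation, 1 was higher and 3 lower of 6 tested with carbidopa, 1 and 4 with LY-364747 and 2 and 3 with CHIR-99021. Of 9 genes listed as membrane or plasma protease inhibitors and related genes, 3, 2 and 3 were higher and 5, 5 and 5 lower. This list also holds genes that do not encode protease inhibitors (Bsg, Lrp1, Pcolce and Pcolce2). The genes called higher were among Bsg, Pcolce and Spock3. Of 8 other matrix proteases 2, 2 and 1 were higher and 5, 4 and 5 lower. Of 6 ADAMTS-like genes 1, 1 and 0 were higher and 3, 3 and 5 lower. The 4 proprotein convertases, which activate precursors, had 2, 2 and 1 higher and 0, 0 and 1 lower, and of 6 genes for proteoglycan substrates and their link proteins 2 could be tested, of which 1, 0 and 0 were higher and 1, 1 and 1 lower. The higher one was Hapln1, a link protein, at 3.24 (SE 1.05, adjusted p = 0.0335) under carbidopa with at most 1.96 CPM in any library. Of the 10 ADAM genes listed as sheddases, 1, 1 and 2 were higher and 5, 5 and 3 lower. Adam22 and Adam23 are on this list but lack an active protease site. The gene called higher with carbidopa and with LY-364747 was Adam22. Of the 8 cathepsins and cystatins 1, 0 and 0 were higher and 4, 4 and 5 lower. Lrp1, the endocytic receptor that clears several MMPs and TIMPs, was at 3311 and 3073 CPM in untreated MEFs, 404 and 419 under carbidopa, 424 and 395 under LY-364747 and 509 and 483 under CHIR-99021, with log2 fold changes of -2.96 (SE 0.10, adjusted p = 1.76e-08) under carbidopa, -2.96 (SE 0.10, adjusted p = 1.76e-08) under LY-364747 and -2.69 (SE 0.10, adjusted p = 3.28e-08) under CHIR-99021. Tfpi2, a secreted protease inhibitor held in the matrix, changed by -3.60 (SE 0.14, adjusted p = 3.76e-08) under carbidopa, -3.53 (SE 0.14, adjusted p = 4.81e-08) under LY-364747 and -1.75 (SE 0.13, adjusted p = 2.70e-06) under CHIR-99021. A2m, a broad protease trap, changed by -2.75, -2.24 and -1.58, each past the threshold. The proteoglycan versican (Vcan), a substrate of Adamts1, Adamts4, Adamts5 and Adamts15, was lower, at -2.75, -2.42 and -1.91 (adjusted p = 7.62e-07, 1.72e-06 and 8.10e-06).

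A wide fall was that of Adamtsl3, an ADAMTS-like matrix protein without a protease domain, which was at 34.1 and 39.2 CPM in untreated MEFs, 0 and 0.280 under carbidopa, 0.337 and 0.479 under LY-364747 and 0.230 and 0.174 under CHIR-99021. Tll1, a tolloid proteinase that trims procollagen, was lower, at -1.70, -1.53 and -2.75 on the log2 scale, all past the threshold. Ctss and Adam8, which macrophages express, were lower too, Ctss at -3.19, -3.63 and -4.11 and Adam8 at -1.82, -1.96 and -2.96. They moved with the macrophage markers given above, whose part in this was not tested. In the other direction, Dpp4, a cell surface peptidase, was at 3.27 and 3.74 CPM in untreated MEFs, 27.9 and 31.3 under carbidopa, 29.1 and 31.0 under LY-364747 and 7.25 and 7.25 under CHIR-99021, with log2 fold changes of 3.07 (SE 0.15, adjusted p = 1.70e-07) under carbidopa, 3.09 (SE 0.15, adjusted p = 1.73e-07) under LY-364747 and 1.04 (SE 0.16, adjusted p = 6.48e-04) under CHIR-99021. Spock3, a testican proteoglycan, was higher by 2.60, 2.88 and 1.59, all past the threshold. Both were lower with CHIR-99021 than with the other compounds in every library.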

How the data were processed

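Counts of reads per gene were deposited by the authors for 8 libraries, whole numbers without normalization. Per the labels and the paper's methods, the reads had been mapped with STAR 2.4.2a to mm10 and counted with featureCounts. The annotation release and the strand setting are not given in the sources used here. The methods describe an NEBNext kit, whereas the labels name a SMARTER kit. Groups and replicate numbers came from the sample titles. Counts were analysed in R 4.3.3 with edgeR 4.0.16 (TMM, filterByExpr, quasi-likelihood test, no covariate beside group, 8 libraries fitted jointly), which left 15154 genes. Genes with an adjusted p under 0.05 were called. CPM were divided by exon lengths of GENCODE M21, which held all 46 members, for levels per kilobase. Words of 75 bases were compared between transcripts. Library totals of 15039566 to 20504338 counts set the precision. Ratios to a group at 0 leave out the counting error of the other group and the spread between cultures. Each replicate pair differed by more than sampling noise, so no library was counted as deposited more than once. Statistics are given in full for the Timp genes, for the 10 members with the smallest p against MEF, and for the 10 with the smallest p between treatments. Other tested members were given by role, after their values were seen, and 10 genes of the pathway list by size of change among those reaching 100 normalized counts in their higher group. Hapln1, which did not reach these counts, was given in addition. The members, the lists and these rules were chosen with earlier results of these data known. Alternatives were DESeq2 1.42.0, RLE size factors, no filter, a minimum of 10 counts per library, fits restricted to the compared groups, the replicate number as a block, and omission of each library. The script was tested on simulated data with known changes.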

Additional observations from a re-analysis of the deposited data

How the results depend on the processing

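Against MEF, the number of members called lower stayed within 1.5 times its value under every alternative, and no log2 fold change of a tested member that was called reversed its sign. The number called higher was less stable. With 1 library left out at a time, it ranged from 4 to 7 with carbidopa (4 without MEF replicate 1), from 4 to 7 with LY-364747 (4 without MEF replicate 1 or LY-364747 replicate 2) and from 3 to 5 with CHIR-99021 (3 without MEF replicate 2 or CHIR-99021 replicate 1). It was 3 with CHIR-99021 when at least 10 counts were asked of every library, which leaves fewer genes. For CHIR-99021 against LY-364747 the number higher ranged from 2 to 6 (2 without CHIR-99021 replicate 1 or LY-364747 replicate 1). For LY-364747 against carbidopa it ranged from 0 to 6 and the number lower from 0 to 1, both highest without carbidopa replicate 2, and without a filter 1 gene, Adamts12, was higher. Over all genes that comparison called 2, and 329 without a filter, 15 with DESeq2, 0 with the compared groups alone and 3832 without carbidopa replicate 2. With the compared groups alone CHIR-99021 differed from carbidopa in 1027 genes rather than 2227, and from LY-364747 in 3673 rather than 2143. A library left alone in its group was assumed to vary like the other groups. The cause was not tested.

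As ratios to MEF, summed CPM without division by length gave 0.597 and 0.628 for Mmp genes with LY-364747 and CHIR-99021, 0.411 for Adamts genes with CHIR-99021, and 0.126 and 0.124 for Timp genes with carbidopa and LY-364747. RLE size factors gave 0.573 and 0.573 for those Mmp sums and 0.113 for Timp genes with carbidopa. With the replicate number as a block, the counts against MEF were 7 higher and 18 lower with carbidopa, 7 and 18 with LY-364747 and 5 and 18 with CHIR-99021, and the block changed no call of a member. Whether the replicate numbers pair the samples is not stated. The differences between replicates 1 and 2 correlated between groups by -0.161 to 0.128. Such weak correlations cannot decide this, since a small shared effect could be hidden by the spread between libraries. Genes with few reads, such as Mmp10, Mmp27 and Adamts8, are limited by depth.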
